A study of Mus musculus with 13 samples.

Results

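The clustered protocadherins are a family of cell adhesion molecules whose genes lie in tandem on mouse chromosome 18, and their promoters were examined here in the ATAC-seq data of cultured oligodendrocyte progenitor cells (OPCs). Members were the protein-coding genes of the GENCODE M21 annotation whose names start with Pcdha, Pcdhb or Pcdhg. There were 57 of them among 21951 protein-coding genes, of which 14 were α, 22 were β and 21 were γ genes. On the mm10 assembly their starts run from position 36930184 (Pcdha1) to 37819513 (Pcdhgc5) of chromosome 18, all on the forward strand. The annotation gives the name Pcdha11 to 2 genes, which are told apart below as ENSMUSG00000007440 and ENSMUSG00000102206.

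ATAC-seq uses the Tn5 transposase to mark open chromatin, and each of 13 OPC cultures gave 1 list of called peaks. OPCs had been immunopanned with an antibody to PDGFRα from pups of postnatal days 5 to 7, pooled by genotype and by region, and were kept in proliferation medium with no differentiation. K27M cultures carried the conditional knock-in H3-3a-LSL-K27M, which yields histone H3.3 K27M after recombination by hGFAP-Cre (named AMGFAP-Cre in the labels), and control cultures came from littermates. There were 3 control and 3 K27M cultures from brainstem, and 3 control and 4 K27M cultures from dorsal telencephalon. The Cre acts in neural stem and progenitor cells and not in OPCs alone, and each culture holds the cells of several pups, so libraries measure cultures and not animals. Cultures with the same number (41, 51, 59 or 61) may come from the same litters, so the libraries may not be fully independent. The comparisons ask whether region of origin or K27M goes with a different accessibility of the protocadherin promoters.

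The 3 gene clusters are known for the way neurons use them. Each α and γ gene supplies a first exon, read from its own promoter and spliced to constant exons shared by its cluster, while β genes have no such constant exons. In neurons most of these promoters are chosen at random on each allele, with the help of CTCF, cohesin and distant enhancers, and the chosen proteins let a neuron tell its own branches from those of others. The 5 C-type genes (Pcdhac1, Pcdhac2, Pcdhgc3, Pcdhgc4 and Pcdhgc5) lie at the ends of the α and γ clusters and are known for a more uniform use. In libraries made from many cells, a promoter open in few cells and a promoter weakly open in many cannot be told apart.

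Lists held 16879 to 52466 peaks. The lists carry no read counts, so depth is unknown, and a promoter without a called peak is not shown to be closed. Markers of the labelled cell type were largely present: a promoter peak was called in 13 libraries at Olig2 and Sox10, in 12 at Pdgfra and in 3 at Cspg4. Of 4 neuronal markers, Snap25, Syt1 and Tubb3 had a promoter peak in 13 libraries and Rbfox3 in 0. Of 3 astrocyte markers Gfap had one in 13 libraries, Aldh1l1 in 4 and Aqp4 in 0. The endothelial genes Flt1, Cldn5 and Pecam1 had one in 11, 3 and 0 libraries, and the microglial genes Aif1, Cx3cr1 and Csf1r in 1, 0 and 0. What these markers contribute to the protocadherin peaks was not tested.

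A promoter peak was counted when any peak overlapped the interval from 2.0 kb upstream to 1.0 kb downstream of the start of the first exon. Peaks were a regular feature of the C-type genes and a scattered one elsewhere. Of the 57 members 4 had a promoter peak in all 13 libraries, and these were 4 of the 5 C-type genes. No member had one in 9 to 12 libraries, 4 had one in 5 to 8, 11 in 2 to 4, 15 in 1 and 23 in none. Among all coding genes the share with a peak in every library was 38.4%, the share found in 5 to 8 was 4.25% and the share found in none was 35%. Of the 52 members that are not C-type, 0 were found in every library and 22 in none.

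**Figure D1:**
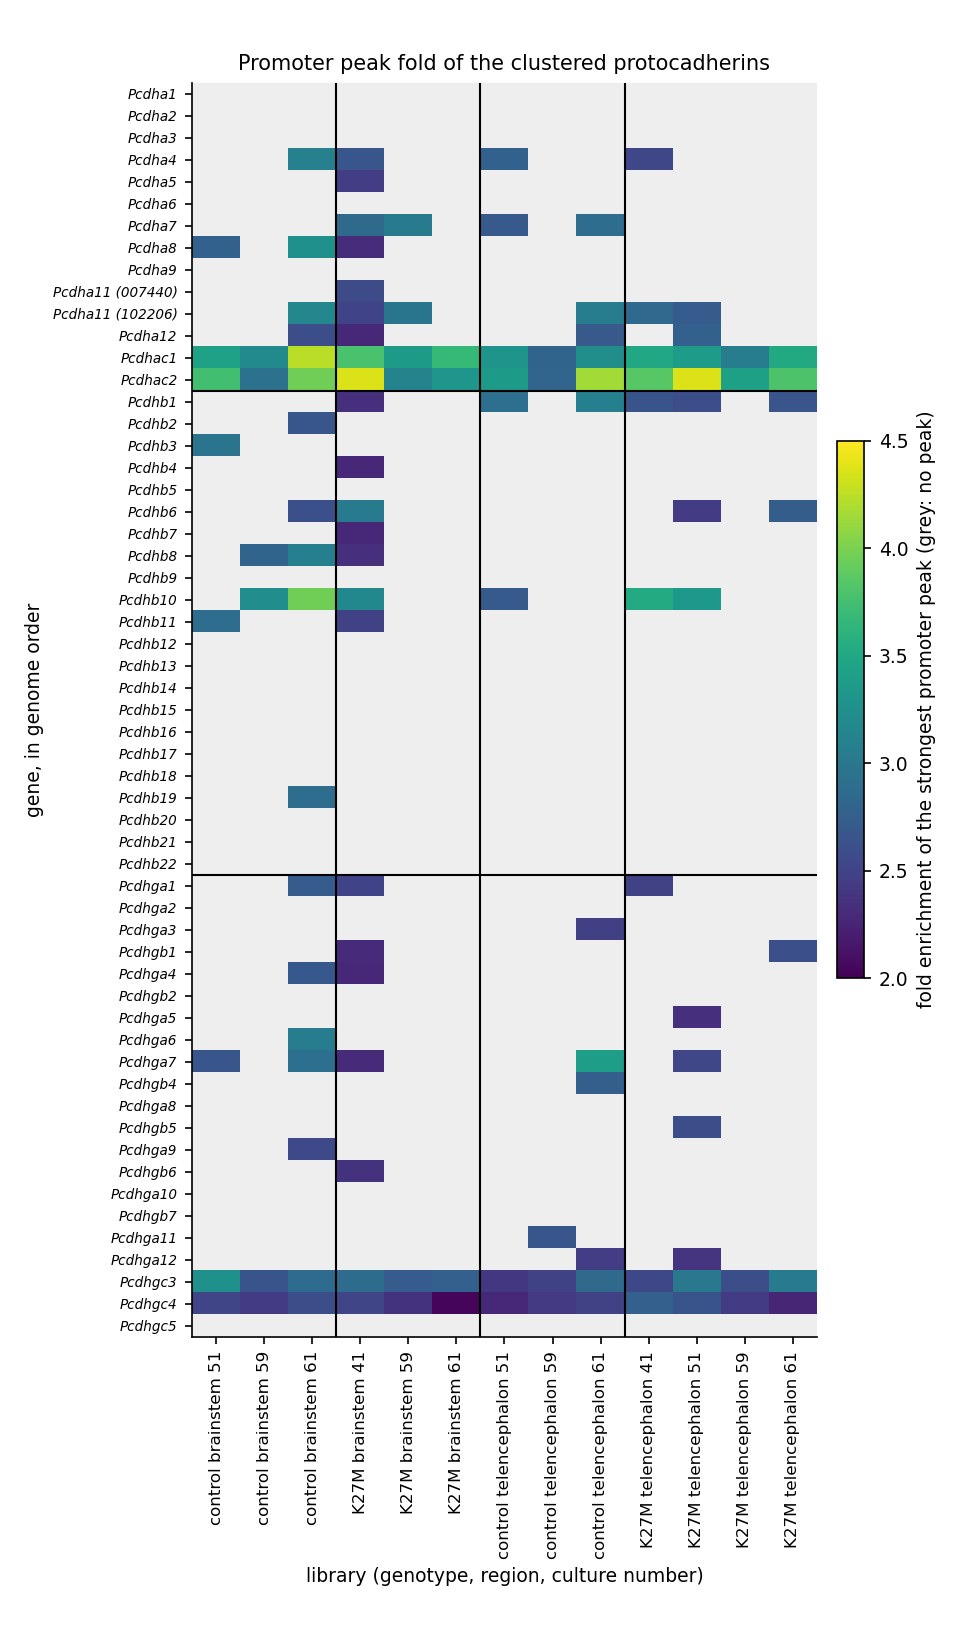
Fold enrichment of the strongest promoter peak of each of the 57 members (rows, in genome order, α above β above γ) in each of the 13 libraries (columns, by group and culture number), with grey where no peak was called. Unbroken rows appear at Pcdhac1, Pcdhac2, Pcdhgc3 and Pcdhgc4, Pcdhgc5 is grey throughout, and the other rows are grey in most libraries.

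Members did not share promoter peaks: of the 123 pairs of a member and a library with a peak, out of 741, 0 used a peak that also reached another member. The spacing of the genes favours this, as 0 neighbouring starts lay less than 3 kb apart and promoter intervals did not overlap. The peak covered the annotated start itself in 67.5% of these pairs. Its centre lay a median of 260.5 bp downstream of the start (quartiles 102.75 and 499.25 bp). First exons of this family resemble each other in sequence, and how reads that match several of them were treated before peak calling is not given in the sources used here, so absent peaks at the most alike copies are uncertain.

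The C-type genes differed among themselves in fold, the deposited enrichment of a peak over background. Pcdhac2, which serotonergic neurons need for the spacing of their axons, had the highest fold of them. In brainstem its fold was 3.74, 2.93 and 3.96 in the control cultures 51, 59 and 61, and 4.37, 3.12 and 3.31 in the K27M cultures 41, 59 and 61. In telencephalon it was 3.36, 2.82 and 4.15 in the control cultures 51, 59 and 61, and 3.85, 4.37, 3.42 and 3.8 in the K27M cultures 41, 51, 59 and 61. All 4 groups overlapped, and the mean was 3.63 ± 0.514 (SD, n = 13).

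Pcdhac1, the other α C-type gene, had a fold of 3.43, 3.2 and 4.24 in the control and 3.78, 3.36 and 3.67 in the K27M brainstem cultures, in the same order of culture numbers. Its telencephalon values were 3.29, 2.81 and 3.24 in control and 3.5, 3.38, 3.06 and 3.52 in K27M cultures. The mean over all libraries was 3.42 ± 0.351 (SD, n = 13). Within their own lists the peaks of Pcdhac2 and Pcdhac1 stood on average at the percentiles 76.4 and 71.9 of fold, above most peaks of the library. Among the 13075 merged peaks found in all libraries their mean folds stood lower, at the percentiles 56.7 and 42.1, and those of Pcdhgc3 and Pcdhgc4 at 7.2 and 1.28.

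The γ C-type genes had lower mean folds than the α C-type genes. Pcdhgc3, whose protein is known as a brake on Wnt signalling, reached 3.25, 2.65 and 2.87 in control and 2.88, 2.72 and 2.77 in K27M brainstem cultures. In telencephalon its fold was 2.41, 2.49 and 2.86 in control and 2.54, 3.0, 2.6 and 3.04 in K27M cultures. The mean was 2.78 ± 0.24 (SD, n = 13), at a mean percentile of 36, and the peak had a median width of 2345 bp against 868 bp at Pcdhac1, 1195 bp at Pcdhac2 and 1094 bp at Pcdhgc4.

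Pcdhgc4, which cortical interneurons need for survival, had the lowest fold of the 4 genes. It reached 2.52, 2.44 and 2.6 in control and 2.52, 2.37 and 2.04 in K27M brainstem cultures. In telencephalon it reached 2.29, 2.42 and 2.48 in control and 2.77, 2.65, 2.43 and 2.27 in K27M cultures. The mean was 2.45 ± 0.183 (SD, n = 13), at a mean percentile of 15.0. Its peak was the only one of the 4 centred upstream of the start, with a median of -189.0 bp. Ranges of the neighbours in the order Pcdhac2, Pcdhac1, Pcdhgc3 and Pcdhgc4 overlapped.

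Pcdhgc5, the last gene of the cluster, had no promoter peak in any library. Upstream, the merged peak of Pcdhgc4 ended 3182 bp before its start, and downstream the next merged peak began 4285 bp after it, both found in all 13 libraries. Its promoter was also the poorest of the C-type genes in CpG: the observed to expected CpG ratio within 500 bp of the start was 0.233, against 0.564 to 0.798 at the other 4.

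Outside the C-type genes, 4 members had a peak in 5 to 8 libraries and could be tested. Pcdhb1, the first β gene, had one in 1 of 6 brainstem and 5 of 7 telencephalon libraries. The folds were 2.35 in K27M brainstem culture 41, 2.91 and 3.08 in control telencephalon cultures 51 and 61, and 2.65, 2.6 and 2.66 in K27M telencephalon cultures 41, 51 and 61. The difference between regions did not pass (two-sided Fisher's exact test, p = 0.103, Benjamini-Hochberg adjusted p = 1.0).

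Pcdhb10 had a peak in 3 brainstem and 3 telencephalon libraries. Its mean fold of 3.32 ± 0.415 (SD, n = 6) was the highest among members that are not C-type. The folds were 3.23 and 3.96 in control brainstem cultures 59 and 61, 3.17 in K27M brainstem culture 41, 2.71 in control telencephalon culture 51, and 3.53 and 3.33 in K27M telencephalon cultures 41 and 51. The α gene Pcdha11 (ENSMUSG00000102206) was likewise found in 3 libraries of each region, with folds of 2.5 to 3.16. Pcdhga7 was found in 3 brainstem and 2 telencephalon libraries, with folds of 2.3 to 3.39. None of the 3 passed for region or genotype (two-sided Fisher's exact tests, adjusted p = 1.0 for each).

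Across all coding genes the same tests called 0 promoters. Of the 934 promoters found in 5 to 8 libraries, 0% differed by region and 0% by genotype at an adjusted p under 0.05 (Fisher's exact tests, smallest adjusted p = 0.544 for each factor). At an unadjusted p under 0.05, 1.5% differed by region (14 promoters) and 0.964% by genotype (9 promoters), and 0 of the 4 tested members did in either comparison. The smallest p that 6 libraries against 7 can give is 0.000583. Over 934 tests a promoter alone at that p would not pass adjustment, so a call needed several promoters to separate as fully. The 0% and the adjusted p of the tested members therefore do not show that regions or genotypes are alike.

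Members found in fewer libraries are given as values alone. Pcdha8 and Pcdhb8 were each found in 3 brainstem and 0 telencephalon libraries, and Pcdhb11 and Pcdhga4 in 2 and 0. Pcdhga12 was found in 0 and 2. Pcdha4, Pcdha7, Pcdha12 and Pcdhb6 were each found in 2 libraries of each region, Pcdhga1 in 2 brainstem and 1 telencephalon libraries, and Pcdhgb1 in 1 of each. Mean folds of these members lay between 2.42 and 2.87. Counts of 4 or fewer of 13 libraries were outside the range tested, so no difference between regions is called for them.

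Counted with the C-type genes, which the β family lacks, the β genes had the fewest peaks for their number. Of the 22 β genes 12 had no peak in any library, against 5 of 14 α and 6 of 21 γ genes, and no β gene had one in all libraries. Without the C-type genes, 5 of 12 α and 5 of 18 γ genes had no peak in any library. Among those α and γ genes, too, 0 had one in all libraries. Peaks were unevenly spread along the β genes: of the 11 genes from Pcdhb1 to Pcdhb11, 9 had a peak in at least 1 library, and of the 11 from Pcdhb12 to Pcdhb22 only Pcdhb19 did, in control brainstem culture 61. This division was read after the values had been seen and carries no test. Among the α genes the later members were found more often, with a peak in at least 1 library at 3 of the 7 from Pcdha1 to Pcdha7 and 6 of the 7 from Pcdha8 to Pcdhac2, which include both C-type genes. Among the γ genes the counts were 8 of the first 11 and 7 of the last 10.

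Base composition differed between the families too. The median observed to expected CpG ratio around the start was 0.378 for β genes (range 0.158 to 0.519), 0.686 for α genes (0.569 to 0.749) and 0.593 for γ genes (0.318 to 0.864), with the C-type genes counted apart at 0.67, and 0.561 over all coding genes. Over the 57 members the ratio and the number of libraries with a peak had a Spearman rho of 0.25 and a Pearson r of 0.289. This is a description across genes that share the same 13 libraries, and the α genes Pcdha6, Pcdha3 and Pcdha2, with ratios of 0.749, 0.699 and 0.685, had no peak in any of them.

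Library by library, the share of members with a peak ranged from 7.02% to 40.4%, below the share of all coding promoters (40.8% to 59.9%) in 13 of 13 libraries. With the C-type genes included, the α share exceeded the β share in 13 of 13 libraries, and the γ share did so in 13 of 13. The α share exceeded the γ share in 10 libraries and equalled it in 3. The mean share was 26.9% ± 14.6 for α, 9.08% ± 9.45 for β and 17.6% ± 9.6 for γ genes (SD, n = 13). Of the C-type genes, 2 α and 2 γ genes had a peak in every library, and the β family has no C-type gene. These genes alone set a floor under the α and γ shares. In control brainstem culture 59 the 2 members with a peak outside the C-type genes were β genes. The order of the families thus does not hold in every library without the C-type genes. Within each family the libraries of the 4 groups overlapped.

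**Figure D2:**
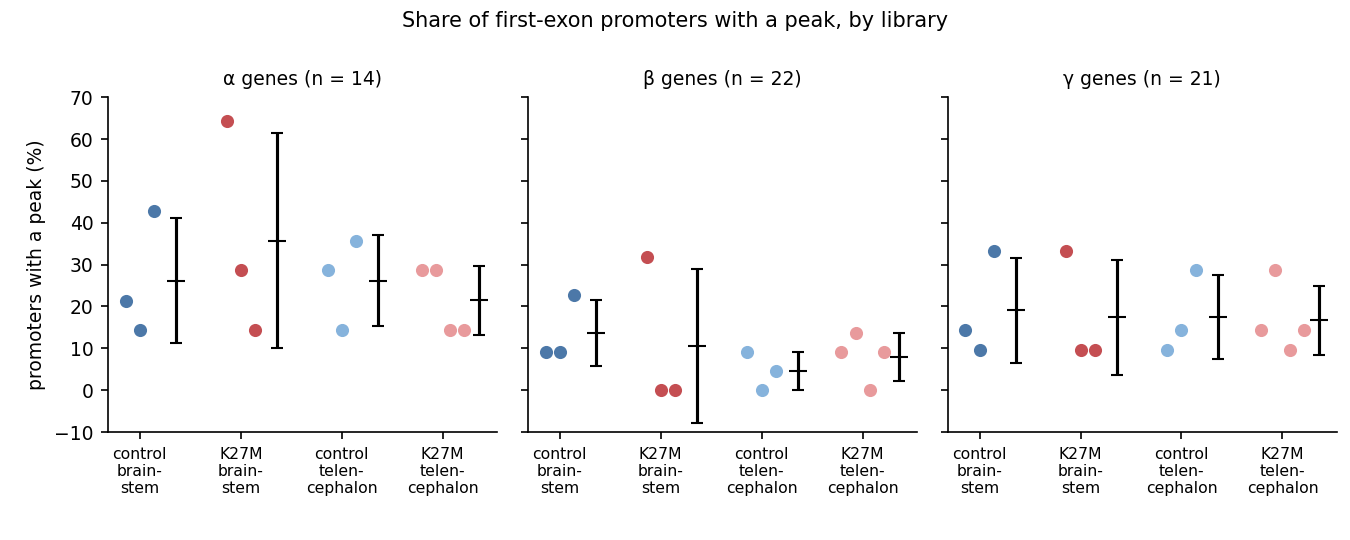
Percentage of first-exon promoters with a peak in each library (points) for the α, β and γ genes by group, with the group mean and SD as bars beside the points. Groups overlap in each panel, and the highest point of the α and β panels is K27M brainstem culture 41, at 64.3% and 31.8%.

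By group, members with a peak numbered 8, 6 and 18 in the control brainstem cultures 51, 59 and 61, and 23, 6 and 4 in the K27M brainstem cultures 41, 59 and 61. They numbered 8, 5 and 12 in the control telencephalon cultures 51, 59 and 61, and 9, 13, 4 and 7 in the K27M telencephalon cultures 41, 51, 59 and 61. Brainstem libraries thus held 10.8 ± 7.76 (SD, n = 6) and telencephalon libraries 8.29 ± 3.35 (SD, n = 7) members, and the ranges overlapped. K27M libraries held 9.43 ± 6.75 (SD, n = 7) and control libraries 9.5 ± 4.81 (SD, n = 6). The difference of 2.55 members between regions was smaller than the spread within groups (pooled SD 6.4) and came to 0.114 without K27M brainstem culture 41. Its direction turned, to -0.167 with lists of equal peak number and to -0.0238 with peaks at a p-value of at most 1e-10. The difference of -0.0714 between genotypes was -2.33 without that library and 0.643 at the stricter p-value.

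The counts moved with the length of the lists. The 4 longest lists, with 45322 to 52466 peaks, held 12 to 23 members, and the other 9, with 16879 to 42238 peaks, held 4 to 9. The share of all coding promoters with a peak separated the same lists, at 58.6% to 59.9% against 40.8% to 56.3%. The C-type genes contributed 4 members to every library, so the members that are not C-type numbered 8 to 19 in the former and 0 to 5 in the latter. Of the 15 members found in 1 library alone, 5 were found in K27M brainstem culture 41 and 4 in control brainstem culture 61. Each region had 2 of the 4 longest lists. With each list reduced to its 16879 most significant peaks, 2 to 5 members remained per library, 51 members had no peak in any library, and Pcdhac2 and Pcdhgc3 alone had one in all 13. Among all coding genes at equal number, the share found in no library was 47.3% and the share found in every library was 27.6%. Pcdhac1 then had one in 8 libraries, Pcdhgc4 in 2, and Pcdhb10 and Pcdhga11 in 1 each.

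**Figure D3:**
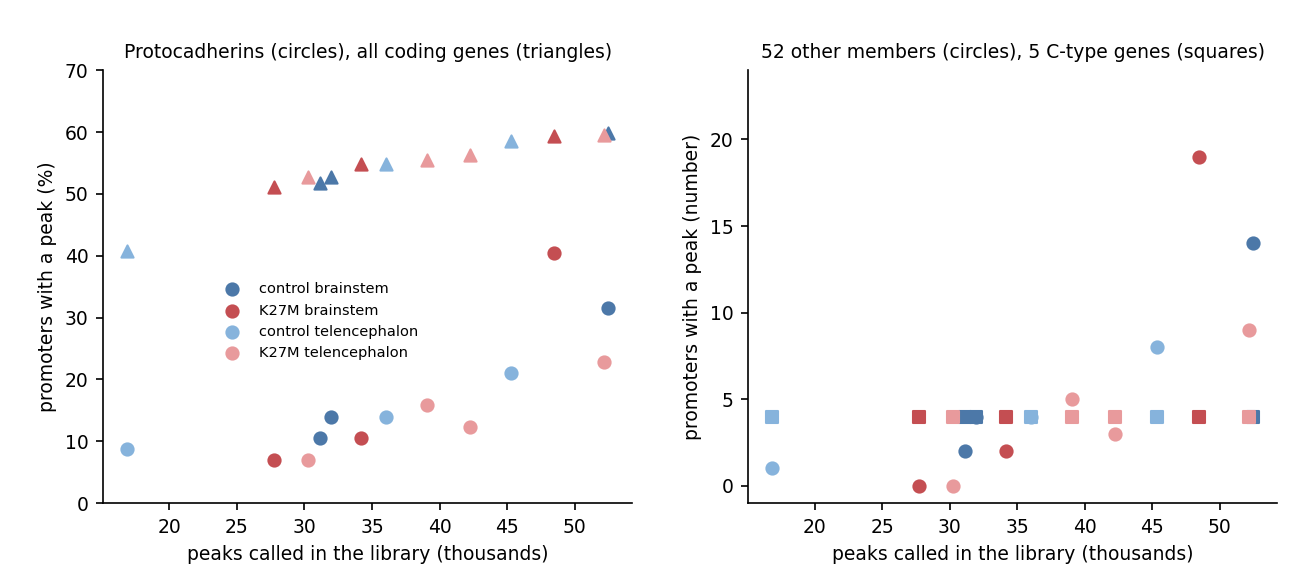
Left, percentage of promoters with a peak against the number of peaks called in the library, for the 57 members (circles) and all coding genes (triangles). Right, number of promoters with a peak among the 5 C-type genes (squares, 4 in every library) and the other 52 members (circles, 0 to 19), with colours for the 4 groups.

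Peaks were then followed across the whole cluster, from 2.0 kb before the first member to 20.0 kb after the last, a span of 933.7 kb. Overlapping peaks of the libraries were joined into 58 merged peaks, 36 at a member promoter and 22 elsewhere. Of these 9 were found in all 13 libraries (15.5%, against 13.1% of the 99746 merged peaks of the genome) and 30 in 1 library alone (51.7%, against 43.1%). Of the 9, 4 were the C-type promoters and 5 lay away from any member promoter.

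**Figure D4:**
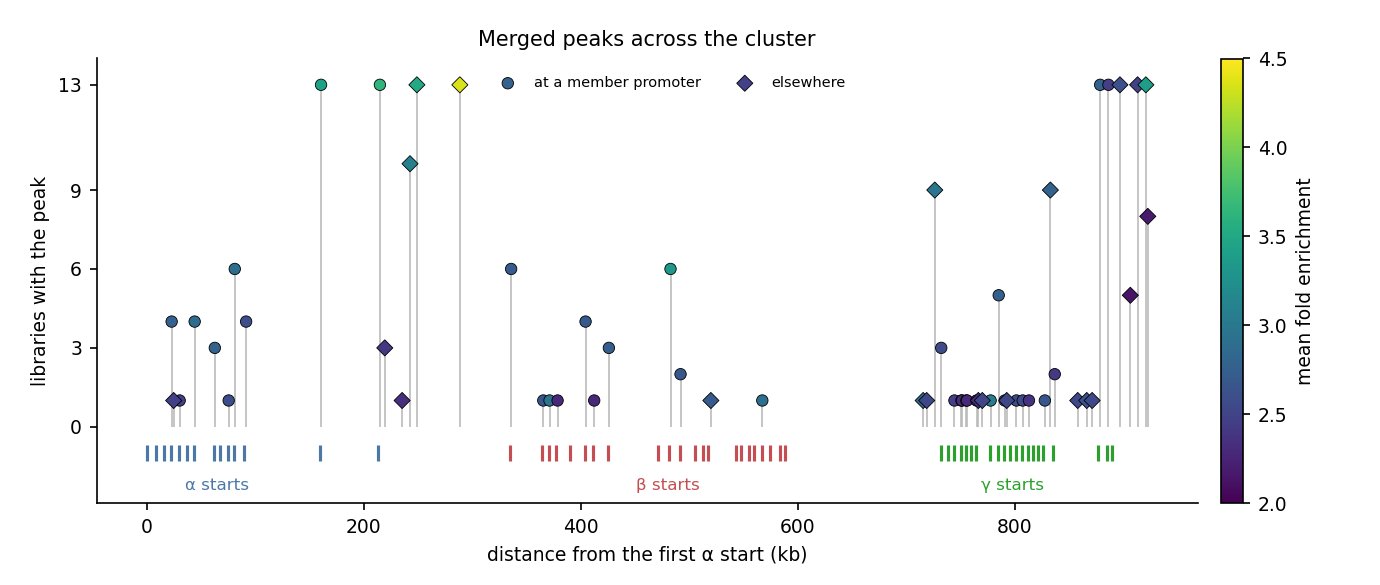
Number of libraries with each of the 58 merged peaks (height) against its distance from the first α start in kb, with circles for peaks at a member promoter, diamonds for peaks elsewhere and colour for mean fold. Ticks under the axis mark the α, β and γ starts. Peaks of all 13 libraries stand toward the ends of the α and γ clusters, between the α and β genes and beyond the γ genes. None stands among the β genes.

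The strongest of the 9 lay between the α and β genes. This peak (chromosome 18, 37217101 to 37218750) began 29440 bp after the end of the α genes and ended 46188 bp before the start of Pcdhb1, and it overlapped only 3 long predicted gene models that span the clusters (Gm37013, Gm37388 and Gm42416). Its fold was 5.08, 3.78 and 5.56 in control brainstem cultures 51, 59 and 61 and 5.41, 3.39 and 3.32 in K27M brainstem cultures 41, 59 and 61. In telencephalon it was 3.95, 3.53 and 5.3 in control and 4.61, 5.11, 3.82 and 3.87 in K27M cultures. The mean of 4.36 ± 0.831 (SD, n = 13) stood at the percentile 91.3 among the 13075 merged peaks found in all libraries, whose median was 3.54. Known enhancers of the α genes lie downstream of their variable exons, but no coordinates of them were used here and the peak is not assigned to any.

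A second peak outside the promoters (37177742 to 37179167) lay within the introns of the α genes, starting at -9919 bp from their common end, with a fold of 3.51 ± 0.575 (SD, n = 13; range 2.58 to 4.47). A neighbour at 37171819 to 37172835, also intronic to the α genes, was found in 10 libraries, 5 of each region, with a fold of 3.09 ± 0.57 (SD, n = 10).

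Toward the γ end, a peak at 37823798 to 37826913 overlapped the constant region downstream of Pcdhgc5, including an exon shared by the γ genes, with a fold of 2.61 ± 0.158 (SD, n = 13). Another at 37840603 to 37843197 covered the last exon of the γ genes and ran past their end, with a fold of 2.48 ± 0.228 (SD, n = 13). The last of the 9, at 37849083 to 37850801, lay 7210 bp beyond the γ genes in an intron of Diaph1, a formin gene that assembles actin filaments, with a fold of 3.38 ± 0.453 (SD, n = 13). The β region held none of the 9, and its most frequent peaks were those of Pcdhb1 and Pcdhb10, in 6 libraries each.

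At 3 of the 9 peaks the fold was higher in each of the 4 longest lists than in any other, as it was at 22.3% of the 13075 merged peaks found in all libraries. At the peak between the α and β genes the 4 longest lists had folds of 5.11 to 5.56 and the other 9 lists 3.32 to 5.08. At Pcdhac2 the ranges were 3.96 to 4.37 and 2.82 to 3.85, and at the intronic α peak 3.86 to 4.47 and 2.58 to 3.76, again without overlap. At the other 6 peaks the ranges overlapped, at Pcdhac1 for example 3.24 to 4.24 and 2.81 to 3.67. The part of list length in these folds was not tested, beyond the centring of each library on its median in the comparisons that follow.

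Region and genotype were compared at the 9 peaks in a fit over all 13075 merged peaks of all libraries, on log2 fold centred on the median of each library and with culture number as a block (limma). Between regions, brainstem minus telencephalon, the 9 log2 differences ran from -0.11 to 0.08 (SE 0.067 to 0.078), and 0 of 9 passed (smallest adjusted p = 0.857). Over all merged peaks 0.0229% passed, 3 in number and all lower in brainstem, and 6.36% had an unadjusted p under 0.05, against 0 of the 9. Pcdhac1 differed by 0.08 (SE 0.08) and Pcdhac2 by -0.09 (SE 0.07) on the log2 scale.

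Between genotypes, K27M minus control, the 9 log2 differences ran from -0.23 to 0.03 (SE 0.073 to 0.086), and again 0 of 9 passed (limma, smallest adjusted p = 0.882). Over all merged peaks 0% passed and 4.48% had an unadjusted p under 0.05. The lowest of the 9 was the peak between the α and β genes, at -0.23 (SE 0.08, unadjusted p = 0.00627, adjusted p = 0.882), the only 1 of the 9 with an unadjusted p under 0.05. Its values overlapped between genotypes, 3.53 to 5.56 in control and 3.32 to 5.41 in K27M libraries, and under the 17 alternative fits the difference ran from -0.27 to -0.15 with adjusted p from 0.777 to 1.

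The difference in K27M effect between brainstem and telencephalon had log2 values from -0.21 to -0.00 over the 9 peaks (SE 0.134 to 0.156), and 0 of 9 passed (limma, smallest adjusted p = 0.999). Over all merged peaks 0% passed and 3.97% had an unadjusted p under 0.05, against 0 of the 9. These fits cover peaks present in every library and say nothing of the members found in few.

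**Figure D5:**
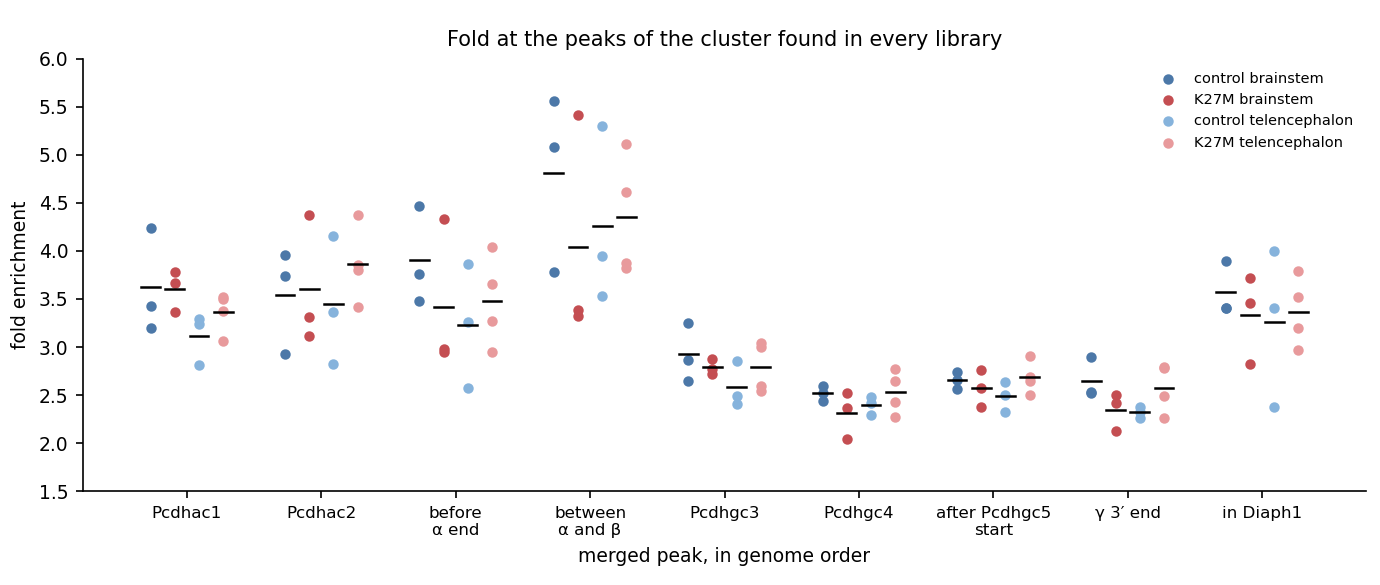
Fold enrichment at the 9 merged peaks of the cluster found in all 13 libraries, in genome order, with a point per library, colours for the 4 groups and a black line at each group mean. The peak between the α and β genes is the highest (3.32 to 5.56) and Pcdhgc4 the lowest of the promoters (2.04 to 2.77), and the groups overlap in region and in genotype at each peak.

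The protocadherin genes outside the cluster gave a contrasting count. Of 12 non-clustered protocadherins 8 had a promoter peak in all 13 libraries (66.7%, against 38.4% of all coding genes). Pcdh12 had one in none, and mean folds ran from 2.14 at Pcdh15 to 4.0 at Pcdh9. With lists of equal peak number 3 of the 12 had one in all libraries, against 27.6% of all coding genes and 2 of the clustered members. With the promoters of every annotated transcript 10 of the 12 had a peak in all libraries and 0 in none, while the counts of the clustered members stayed at 4 and 23. Over the 21951 coding genes those counts were 9211 and 6724. Of 15 coding genes beside or between the clusters, 6 had one in all 13 libraries, among them Diaph1 and the deacetylase gene Hdac3. That is 40%, near the 38.4% of all coding genes. Hars and Hars2 had the same mean fold (3.96), as had Hdac3 and Rell2 (2.78), so each pair may share its peak. The 15 include the 3 predicted gene models that span the clusters. Of these, Gm42416 and Gm37388 had the library counts and mean folds of Pcdha4 (2.77) and Pcdha7 (2.87), so the list is not separate from the members. Between the β and γ genes, Slc25a2 had none and Taf7, which encodes a subunit of the general transcription factor TFIID, had one in 1 library.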

How the data were processed

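OPC cultures were grouped by the region, genotype and culture number in the labels. Per the labels and the study's methods, the authors used the nf-core ATAC-seq pipeline 2.1.2 with BWA 0.7.17-r1188 (mm10) and a blacklist filter, and each library's broad peaks came from MACS2 2.2.7.1. The deposited lists give each peak a fold enrichment (a ratio over local background), −log10 p and −log10 q averaged over the peak, and a score, which was not analysed. The calling cutoff is not given in the sources used here (lowest deposited −log10 q 1.0).

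Here, peaks were joined when they overlapped by 1 bp or more. Promoters ran 2.0 kb upstream to 1.0 kb downstream of the start of the most 5′ protein-coding transcript of each gene in GENCODE M21. A gene's fold was that of its strongest promoter peak. Promoters found in 5 to 8 libraries were compared with two-sided Fisher's exact tests. Log2 fold at merged peaks of all 13 libraries was fitted with limma 3.58.1 in R 4.3.3, with 4 groups and culture number as a block. Both used Benjamini-Hochberg adjustment over all features, threshold 0.05, and were tested on simulated data. Pairing by culture number comes from the culture labels and the study's matched cultures. Deviations of same-numbered libraries correlated weakly (mean r 0.079 over 16 pairs, 4 over 0.1, largest 0.271). For libraries of different numbers the mean r was -0.027 over 47 pairs, 7 over 0.1, and the largest was 0.295. Members and lists were chosen with earlier results of these data known. Named were the C-type genes, the 3 most often found genes of each family, tested members and the strongest shared peaks. Members named beyond these, and the Pcdhb12 to Pcdhb22 division, were chosen after their values were seen. Coordinates are 1-based. Alternatives covered peak stringency, equal peak number, promoter definition, centring, the block and leaving out each library.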

Additional observations from a re-analysis of the deposited data

How the results depend on the processing

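The mean number of members with a peak per library, 9.46, came to 2.92 with lists of equal peak number and to 0.846 with peaks at a p-value of at most 1e-10. With that stricter p-value the α and γ means of 3.77 and 3.69 came to 0.538 and 0.308, and with equal peak number the γ mean came to 1.23. The difference between regions, 2.55 members, turned to -0.167 at equal number and -0.0238 at the stricter p-value, and that between genotypes, -0.0714, to 0.643 at the stricter p-value, each within the pooled SD of 6.4. Leaving out 1 library gave means of 8.33 to 9.92 members, and differences of 0.114 to 3.91 between regions and of -2.33 to 1.63 between genotypes. The 9 cluster peaks of all libraries came to 5 at equal number and 0 at the stricter p-value (alternatives chosen after seeing the data), and stayed at 9 without any 1 library. Promoter definition and overlap left the member means within the spread between replicates. The 3 merged peaks called between regions came to 2 with no replicate block, to 15 with peaks of at least 10 libraries, and to 0 without centring and at the stricter p-value, with 0 to 4 when 1 library was left out. Without centring the median of all merged peaks moved to -0.11 for the interaction and 0.12 for region in control cultures. The genotype count of 0 came to 1 with peaks of at least 10 libraries and to 0 to 2 with 1 library left out, 2 without K27M telencephalon culture 59, and the interaction count stayed at 0. Fisher's exact tests called 0 promoters under each alternative, and 0 with any 1 library left out. Under the replicate block they also called 0, with an unadjusted p under 0.05 at 1 promoter by region and 0 by genotype. That block kept only culture numbers with both sides, too few pairs for a promoter to pass adjustment unless most did. By genotype even an unadjusted p under 0.05 was out of reach, so nothing follows from these counts under the block. None of the 9 cluster peaks passed in any fit that included it. Depth is unknown, so the limit of detection at a promoter cannot be given.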

Other observations

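Genes whose products are known to act on the clustered protocadherins were themselves mostly found with open promoters. Of 17 such genes 10 had a promoter peak in all 13 libraries (58.8%, against 38.4% of all coding genes). With the promoters of every annotated transcript 16 had one, against 9211 of the 21951 coding genes. Among the 10 were Ctcf (mean fold 2.95), which binds the promoters and enhancers of the cluster, the cohesin genes Rad21 (3.22), Smc1a (4.24) and Smc3 (3.72), and the cohesin release factor Wapl (4.24). Smchd1, a chromatin protein that silences the cluster, had a mean fold of 4.11 and was found in all 13 libraries. The DNA methyltransferase genes Dnmt3a and Dnmt3b were each found in 10 libraries, 5 of each region.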
